A study of Mus musculus with 48 samples.

Results

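The genes described here encode the kainate receptor subunits Grik1, Grik2, Grik3, Grik4 and Grik5 and their auxiliary proteins Neto1 and Neto2. They were taken by symbol from the Ensembl gene IDs of the RNA count files, and all 7 were found among 48869 gene IDs. The study compared Setd1b cKO mice with control mice, all C57BL/6J animals of 4 to 6 months. SETD1B, the product of the targeted gene, is a methyltransferase of lysine 4 of histone H3, and cKO stands for conditional knockout. The Cre driver and the control genotype are not given in the sources used here. RNA was sequenced from neurons of the hippocampal CA region (3 libraries labelled cKO and 3 labelled control) and from whole CA tissue (6 and 6). H3K4me3 and H3K4me1 were profiled by ChIP-seq in sorted neuronal nuclei with 4 libraries per genotype. For H3K27ac there were 4 libraries labelled cKO against 3 controls, and for H3K9ac 3 against 4. Nothing in the labels says which libraries came from separate animals, so the p-values measure only the spread between these libraries.

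Kainate receptors are glutamate-gated ion channels assembled from several subunits. Grik1, Grik2 and Grik3 (GluK1, GluK2 and GluK3) can form channels by themselves, whereas Grik4 and Grik5 (GluK4 and GluK5) bind glutamate with high affinity and need a partner of the first kind. Neto1 and Neto2 are transmembrane proteins that bind the receptors and slow their gating. In the hippocampus these receptors are best known from the mossy fibre synapses between dentate granule cells and CA3 pyramidal cells and from interneurons.

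The counted reads per library came to 55.7 to 69.1 M in neuron RNA and to 14.9 to 20.1 M in whole CA RNA. Mitochondrial genes held 0.00814 to 0.0128% of the counted reads in control neuron RNA and 4.33 to 6.17% in control whole CA RNA. The part of this difference between the materials in the values below was not tested. Levels are given as CPM, counts scaled to a common library size with TMM factors, which allow libraries to be compared for 1 gene but not genes with each other, since no transcript length entered. Counts of Setd1b went against the labels: the whole-gene level was higher in the whole CA libraries labelled cKO (log2 fold change 0.59, edgeR adjusted p = 0.00415) and did not pass the test in neuron RNA (0.25, adjusted p = 0.361). Which part of Setd1b was deleted is not given in the sources used here, so every direction below is that of the library labels. In control neuron RNA the summed levels of the marker lists for astrocytes, oligodendrocytes, their precursors, microglia and endothelial cells were far below those of whole CA, with list medians from -6.54 to -5.22 on the log2 scale. The markers of excitatory neurons Slc17a7, Camk2a and Neurod6 were also lower there, and Neurod2 was higher. Of the dentate granule markers 4 of 5 were called higher by edgeR (Prox1, Dsp, Glis3 and Tdo2) and 0 lower, with a list median of 0.75. Of the CA1 markers 2 of 5 were called lower and 0 higher. Of the CA2 markers 2 of 4 were lower and 2 higher, and of the CA3 markers 3 of 5 were lower and 2 higher. The part of these lists in the levels of the members was not tested.

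The stretches of 250 bases that precede 4 annotated start sites are shown because peaks of histone marks around these starts are compared below, and because the starts differ in CpG content, a feature that H3K4me3 is known to follow. They come from RefSeq on the build GRCm38.p6 and read 5′ to 3′ on the strand of the gene, with every CG dinucleotide in capitals.
Grik4, chr9:42944372-42944621, minus strand: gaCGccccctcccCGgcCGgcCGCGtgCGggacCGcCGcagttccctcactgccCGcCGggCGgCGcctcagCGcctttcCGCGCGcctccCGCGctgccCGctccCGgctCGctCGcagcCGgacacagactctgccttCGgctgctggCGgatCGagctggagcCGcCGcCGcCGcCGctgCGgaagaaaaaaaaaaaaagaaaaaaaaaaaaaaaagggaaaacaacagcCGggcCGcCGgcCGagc
Neto2, chr8:85700925-85701174, minus strand: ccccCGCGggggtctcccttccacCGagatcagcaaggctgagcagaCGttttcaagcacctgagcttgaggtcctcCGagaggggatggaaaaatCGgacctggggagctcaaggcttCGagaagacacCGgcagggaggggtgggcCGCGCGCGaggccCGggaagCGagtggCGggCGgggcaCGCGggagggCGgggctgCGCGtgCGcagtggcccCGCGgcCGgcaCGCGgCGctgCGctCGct
Neto2, other start, chr8:85691010-85691259, minus strand: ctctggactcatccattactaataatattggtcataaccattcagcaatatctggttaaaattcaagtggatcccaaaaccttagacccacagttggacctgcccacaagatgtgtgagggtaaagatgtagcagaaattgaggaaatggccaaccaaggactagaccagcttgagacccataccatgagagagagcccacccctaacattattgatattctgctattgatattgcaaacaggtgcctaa
Grik5, chr7:25072370-25072619, minus strand: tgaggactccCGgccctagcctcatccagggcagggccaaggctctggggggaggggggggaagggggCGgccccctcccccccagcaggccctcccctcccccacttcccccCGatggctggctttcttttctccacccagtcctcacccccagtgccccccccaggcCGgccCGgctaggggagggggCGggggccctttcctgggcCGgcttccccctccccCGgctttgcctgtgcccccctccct

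The Grik4 stretch held 36 CG dinucleotides, a number reached by 2.58% of all promoters in the table. The first Neto2 stretch held 30, reached by 5.94%, and the other Neto2 start, which lies inside the gene, held 0. Grik5, whose start also lies inside the gene, held 8, a number that 43% of promoters reach, against a median of 6 over all promoters. The corresponding stretches of Grik3 (42) and Grik2 (20) also lay above that median. Grik1 and Neto1 had no entry in the table.

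Levels in the controls are described first. The genes lie on different chromosomes (GRCm38.p6): Grik1 at chr16:87895901-88290863, Grik2 at chr10:49093680-49790161, Grik3 at chr4:125490259-125714173, Grik4 at chr9:42518182-42945000, Grik5 at chr7:25009849-25075694, Neto1 at chr18:86394815-86506721 and Neto2 at chr8:85636718-85700952. Of these 7, Grik1, Grik2, Grik4 and Grik5 were higher in control neuron RNA than in control whole CA RNA and Neto1 was lower, in a comparison in which edgeR called 83% of 17523 genes, 43.2% higher and 39.8% lower. Material, RNA isolation and sequencing run cannot be told apart in it.

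Grik2, the most widely expressed of the channel-forming subunits, stood at 212, 281 and 254 CPM in the control neuron libraries. In the 6 control whole CA libraries it ranged from 59.9 to 68.7 with a median of 65.7. The groups were far apart, with a log2 fold change of 1.75 ± 0.08 (SE) and an edgeR adjusted p of 6.41e-16. Grik1, a subunit known from interneurons, stood at 42.5, 45.1 and 53 CPM against 12.9 to 15.9 (median 15.5), a log2 fold change of 1.46 ± 0.10 (adjusted p = 2.02e-12). Of the interneuron markers, 6 of 8 were lower in the neuron RNA (Gad1, Gad2, Sst, Pvalb, Npy and Lhx6) and 1 was higher (Vip). Over all genes in this comparison 39.8% were called lower and 43.2% higher. Their part in the Grik1 value was not tested.

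Grik5 was 0.66 ± 0.10 higher on the log2 scale in control neuron RNA (adjusted p = 2.08e-06). Grik4 was 0.24 ± 0.08 higher (adjusted p = 0.00692), a call that was lost without neuron control replicate 1 (0.16, adjusted p = 0.082). Neto1 was the only member called in the other direction, at 105, 129 and 126 CPM in neurons against 132 to 157 (median 147) in whole CA, a difference of -0.47 ± 0.09 (adjusted p = 5.16e-05). Grik3 (0.17, adjusted p = 0.111) and Neto2 (-0.18, adjusted p = 0.293) did not pass the test. Grik3 was called higher with library size alone as the scaling (0.35, adjusted p = 0.00295), with no filter (0.24, adjusted p = 0.022) and without whole CA control replicate 1 (0.21, adjusted p = 0.0394).

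The genotypes were compared in each material, with Benjamini-Hochberg adjustment over all genes tested and calls at an adjusted p under 0.05 in edgeR's quasi-likelihood test. In whole CA RNA, 2 of the 7 genes were lower in the libraries labelled cKO. The high-affinity subunit Grik4 fell by 25.1% and the auxiliary protein Neto1 fell by 22.4%. None rose. Over all 15362 genes tested, 4.17% were called, 2.79% lower and 1.38% higher. The median log2 fold change of the 7 was -0.07, beside -0.00 over all genes. In neuron RNA none of the 7 passed the test, where 2.75% of 19622 genes were called, and Grik4 and Neto1 were the 2 with an unadjusted p under 0.05 (17.2% of all genes). DESeq2 and every other setting run in neuron RNA also left all 7 uncalled.

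**Figure D1:**
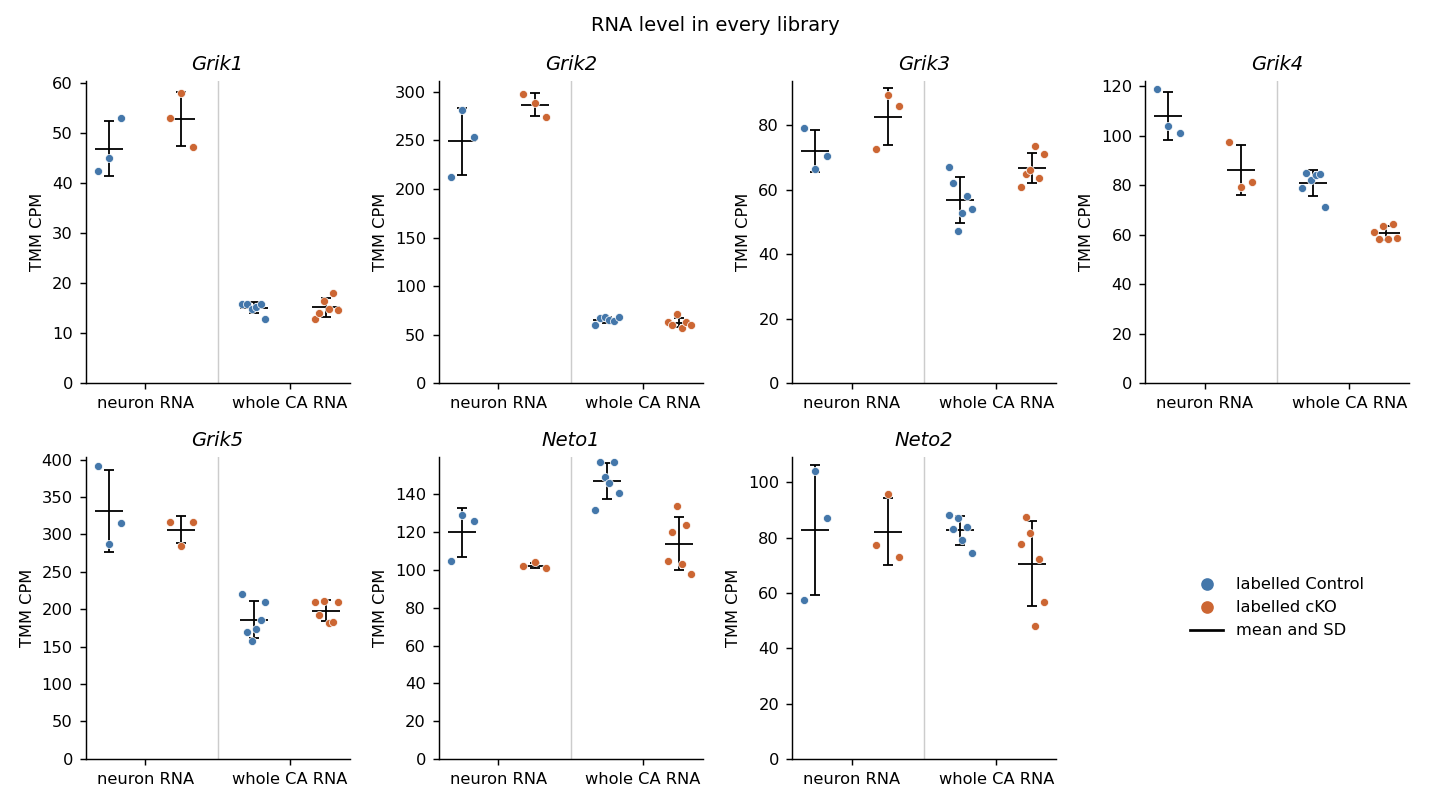
TMM CPM (y axis) of each gene in every library of neuron RNA and whole CA RNA, labelled control in blue and labelled cKO in orange, with the mean and SD in black. In whole CA RNA the 6 Grik4 values labelled cKO (58.1 to 64.2) lie below the 6 control values (71.3 to 84.9), while Grik1 and Grik2 differ mainly between the materials.

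Among the channel-forming subunits, Grik1 stood in whole CA at 12.9 to 18.1 CPM (median 14.7) in the libraries labelled cKO and at 12.9 to 15.9 (median 15.5) in the controls. The ranges overlapped and the difference was 0.01 on the log2 scale (95% interval -0.18 to 0.19, adjusted p = 0.987). In neuron RNA it stood at 53.1, 58 and 47.3 CPM against 42.5, 45.1 and 53 (0.17, adjusted p = 0.459), also with overlap.

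In neuron RNA the Grik2 values labelled cKO were 298, 289 and 274 CPM, beside 212, 281 and 254 in the controls. The highest control lay between the cKO values, and the difference of 0.21 did not pass the test (95% interval -0.05 to 0.46, adjusted p = 0.387). In whole CA it ranged from 57.3 to 71.2 (median 61.4) against 59.9 to 68.7 (median 65.7), a difference of -0.07 (adjusted p = 0.666). The difference between both genotype effects was 0.28 for Grik2, with an unadjusted p of 0.0183 in edgeR and an adjusted p of 0.569.

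Grik3 was the member with the highest fold change in whole CA. It ranged from 61 to 73.6 CPM (median 65.5) in the libraries labelled cKO and from 47.1 to 67 (median 56.1) in the controls, so that the groups overlapped. The log2 fold change of 0.23 ± 0.08 did not pass the test (95% interval 0.07 to 0.39, adjusted p = 0.111). Without whole CA control replicate 1, the highest control, Grik3 was called (0.29, adjusted p = 0.0344). In neuron RNA it stood at 72.7, 89.4 and 86 CPM against 79.1, 66.4 and 70.4, a difference of 0.20 (adjusted p = 0.362).

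Grik4, which with Grik5 makes up the high-affinity class, ranged in whole CA from 58.1 to 64.2 CPM (median 59.8) in the libraries labelled cKO and from 71.3 to 84.9 (median 83.2) in the controls. Every library labelled cKO lay below every control, as held in either direction for 3.08% of all genes tested. The means were 60.7 ± 2.75 and 81 ± 5.25 CPM (SD, n = 6 each), and the log2 fold change was -0.42 ± 0.06 (95% interval -0.54 to -0.30, edgeR adjusted p = 0.000132). The file names place replicates 1 to 3 and 4 to 6 on different sequencing lanes: the difference was -0.43 in the first lane (edgeR adjusted p = 0.0111) and -0.40 in the second (adjusted p = 0.0542), where the call was lost with fewer libraries.

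In neuron RNA, the Grik4 values labelled cKO were 97.6, 79.2 and 81.4 CPM and those of the controls 119, 104 and 101. These groups did not overlap either, which was so for 23.9% of the genes tested there. The log2 fold change was -0.33 ± 0.11 (95% interval -0.57 to -0.09, unadjusted p = 0.0125, edgeR adjusted p = 0.162). The difference between the effects in both materials was 0.09 (95% interval -0.14 to 0.33, adjusted p = 0.806).

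Grik5 did not pass the test in either material. In whole CA it ranged from 181 to 211 CPM (median 201) against 157 to 221 (median 180), a log2 fold change of 0.09 (95% interval -0.07 to 0.25, adjusted p = 0.662). In neuron RNA it reached 317, 285 and 317 CPM with the label cKO and 392, 287 and 315 in the controls, a difference of -0.11 (95% interval -0.39 to 0.16, adjusted p = 0.672). The direction turned to 0.02 without neuron control replicate 1, which held the highest value.

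Neto1 ranged in whole CA from 97.7 to 134 CPM (median 113) in the libraries labelled cKO and from 132 to 157 (median 147) in the controls. Only cKO replicate 3, at 134, reached above the lowest control. The means were 114 ± 14.3 and 147 ± 9.56 CPM (SD, n = 6 each), and the log2 fold change was -0.37 ± 0.07 (95% interval -0.52 to -0.21, edgeR adjusted p = 0.00641). Within lanes it was -0.28 in the first (adjusted p = 0.236) and -0.45 in the second (adjusted p = 0.0366). Neuron RNA held 102, 104 and 101 CPM against 105, 129 and 126, without overlap, as for 23.9% of the genes tested there. The difference of -0.23 ± 0.09 did not pass the test (unadjusted p = 0.0365, edgeR adjusted p = 0.259).

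Neto2 varied more between libraries. Whole CA values ranged from 48.1 to 87.6 CPM (median 75) in the libraries labelled cKO and from 74.3 to 88.3 (median 83.7) in the controls, and the log2 fold change of -0.23 did not pass the test (95% interval -0.46 to 0.01, adjusted p = 0.334). In neuron RNA it stood at 77.5, 95.9 and 73.2 CPM against 57.4, 104 and 87, a difference of -0.01 (95% interval -0.44 to 0.42, adjusted p = 0.985).

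**Figure D2:**
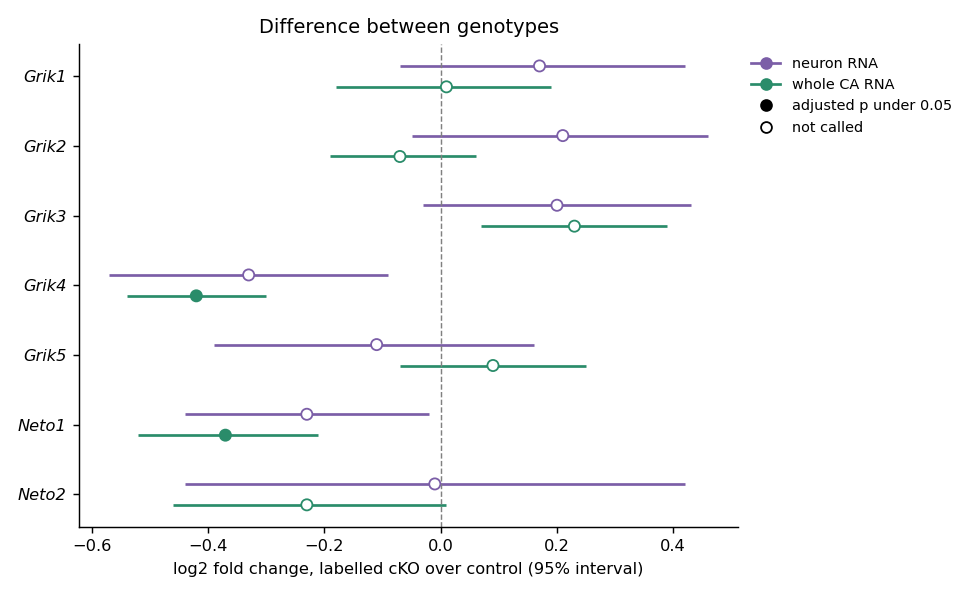
Log2 fold change of libraries labelled cKO over control (x axis) with its 95% interval, for each gene in neuron RNA (purple, 3 against 3) and whole CA RNA (green, 6 against 6); filled points passed the adjusted p threshold of 0.05. Grik4 (-0.42) and Neto1 (-0.37) in whole CA RNA are the filled points.

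The interaction of genotype with material called 28 of 17523 genes (0.16%) and none of the 7. Among the members, 1 had an unadjusted p under 0.05 in that edgeR test (8.11% of all genes). DESeq2, which called 79 genes, called none of the 7 either.

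Across the 12 whole CA libraries, which include both genotypes, Grik4 and Neto1 varied together (Pearson r of log2 CPM 0.88), and Grik3 ran opposite to Grik4 (-0.65) and Neto1 (-0.67). The genotype difference itself enters these values, and so does the scaling of each library. The 2 genes most like Grik4 over the same 12 libraries were Slitrk3 (r = 0.97) and Dcn (0.96), which were also lower in the libraries labelled cKO, by -0.29 and -2.25 on the log2 scale. Those most like Neto1 were 5330416C01Rik (0.97) and the serotonin receptor gene Htr1b (0.94). For Grik5 they were Fcho1 and Tmem151a (both 0.97), for Neto2 Tmem33 and Csnk1g3 (both 0.94), for Grik2 Golim4 (0.94) and Cep126 (0.93), for Grik3 Tmem130 (0.93) and Smim1 (0.91), and for Grik1 Parp11 and Chrna3 (both 0.89). Over the 6 neuron libraries the r of Grik1 with Chrna3 was -0.31, and every other pair named here was at 0.55 or above.

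Other genes of glutamate receptors and of kainate receptor partners were read from 2 lists. Of 13 AMPA, NMDA and delta receptor subunits, 12 were tested in whole CA RNA and 3 fell: Gria2, the AMPA subunit that limits calcium entry (-0.38 ± 0.07, adjusted p = 0.00272), and the NMDA subunits Grin3a (-0.33, adjusted p = 0.00194) and Grin2a (-0.25, adjusted p = 0.0324). None rose, and the median of the list was -0.11. Over all genes tested in whole CA RNA, 2.79% were called lower and 1.38% higher. In neuron RNA 0 of 13 were called by edgeR, with 3 at an unadjusted p under 0.05 (17.2% of all genes).

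Of the genes for partners and regulators of kainate receptors, 23 were tested in each material. The shares called over all genes were 4.17% in whole CA RNA and 2.75% in neuron RNA. In whole CA RNA 3 fell, among them Prkca (-0.28, adjusted p = 0.00775), a protein kinase C, and Adarb1 (-0.19, adjusted p = 0.0324), an RNA editing enzyme that acts on glutamate receptor transcripts. Another 3 rose, among them Kif17, a kinesin motor of dendrites (0.69, adjusted p = 0.000388), and Pick1, a PDZ domain protein (0.27, adjusted p = 0.0346). In neuron RNA the single call was C1ql2, a secreted protein of mossy fibre terminals that recruits kainate receptors, at 26.8 ± 5.25 CPM against 45.2 ± 6.82 (SD, n = 3 each), a log2 fold change of -0.76 ± 0.15 (edgeR adjusted p = 0.0299). C1ql2 in whole CA was low and variable, at 4.59 ± 3.79 against 7.46 ± 2.53 CPM (n = 6 each), and did not pass the test (-0.69, adjusted p = 0.433).

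Markers of hippocampal cell types were also compared between the genotypes. Over all genes tested, edgeR called 4.17% in whole CA RNA and 2.75% in neuron RNA. In whole CA RNA, 3 of 5 CA3 markers fell (Iyd by -1.42, Cdh24 by -0.74 and Nectin3 by -0.39), and their summed level was 107 to 128 CPM in the libraries labelled cKO and 136 to 155 in the controls. The CA2 markers fell in 2 of 4 (Pcp4 by -0.74 and Amigo2 by -0.70), with sums of 146 to 182 against 189 to 222. Of the dentate granule markers 2 of 5 fell (Lct by -1.86 and Dsp by -0.96), with sums of 38.8 to 85.5 against 78.4 to 114. Of the CA1 markers 1 of 5 fell (Wfs1, -0.43), with sums of 753 to 838 against 751 to 836. Of 8 interneuron markers 0 were called by edgeR and 1 had an unadjusted p under 0.05 (15.7% of all genes tested). Their sums were 849 to 939 against 835 to 1050.

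Of the other lists in whole CA RNA, 1 of 4 excitatory neuron markers fell (Neurod6, -1.78, sums of 5980 to 6890 against 6520 to 7230 CPM), as did 1 of 5 microglial markers (Cx3cr1, -0.22, sums of 233 to 257 against 262 to 322). The same held for 1 of 5 astrocyte markers (Aqp4, -0.38, sums of 1200 to 1320 against 1270 to 1490) and 1 of 4 endothelial markers (Kdr, -0.40, sums of 128 to 141 against 139 to 161). No marker of oligodendrocytes or their precursors was called by edgeR, with 1 of these 8 at an unadjusted p under 0.05 (15.7% of all genes tested). By the same rule there were 4 of 4 CA2, 4 of 5 dentate granule, 4 of 5 microglial and 3 of 5 CA3 markers. There were also 3 of 4 excitatory neuron, 2 of 5 astrocyte, 1 of 5 CA1 and 1 of 4 endothelial markers.

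In neuron RNA the summed CA3 markers were 130 to 142 CPM against 161 to 167 with 1 of 5 called (Cdh24, -1.23), and the dentate granule markers 131 to 164 against 178 to 204 with 3 of 5 called (Lct, Dsp and Tdo2). The CA1 markers summed to 534 to 605 CPM against 635 to 724 with 1 of 5 called (Wfs1, -1.11), and the CA2 markers to 131 to 142 against 151 to 170 with 1 of 4 called (Amigo2, -0.62). Neurod6 had a log2 fold change of -2.24 (edgeR adjusted p = 2.96e-05), and the excitatory neuron markers summed to 2370 to 2740 against 2700 to 3240. Endothelial markers summed to 4.67 to 5.24 against 6.47 to 7.16 with 1 of 3 tested called (Kdr, -0.51). None of the interneuron, astrocyte, microglial, oligodendrocyte or precursor markers was called by edgeR there, with 1 (of the oligodendrocyte precursor list) at an unadjusted p under 0.05 (17.2% of all genes). No marker of these lists was at 0 in every library. The part of these markers in the Grik4 and Neto1 values was not tested. In bulk samples fewer cells of a type and less RNA per cell cannot be told apart.

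H3K4me3, a mark of active start sites, was read as the length covered by the authors' peaks within 2 kb on either side of each annotated start, a window of 4001 bp at most. It was compared as log2 of the length plus 100 bp with limma over 17911 start sites. Peaks around Grik2, Grik3, Grik4 and the CpG-rich Neto2 start were shorter in the libraries labelled cKO, 4 of 5 tested member starts, and in each of them every library labelled cKO lay below every control. Over all starts, 14.9% were called, 14.3% shorter and 0.586% longer, and 21.5% had every library labelled cKO below every control. The median over all starts was -0.06, and it became 0.06 when each library was centred on its own median. Centring, an alternative chosen after seeing the data, turned the split of the calls from 2564 shorter and 105 longer to 1106 shorter and 1502 longer. Relative to it only the Neto2 start stayed called among the members. A window of 1 kb left none of the 5 called. It cannot show differences that lie further out. Part of the upstream difference lay within it at Neto2 (647 to 870 bp labelled cKO against 907 to 1055 bp) and at Grik2 (704 to 968 against 1076 to 1333 bp). At Grik4 the peaks ran at least 1601 bp downstream in every library, and at Grik5 at least 1337 bp upstream and 1767 bp downstream. Each genotype was compared with 1 input library for this mark, per the file headers, so input and genotype cannot be told apart.

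At the Grik4 start the covered length was 2404, 2454, 2485 and 2437 bp in the libraries labelled cKO and 2837, 2807, 2853 and 2793 bp in the controls. The groups did not overlap, and the log2 difference was -0.20 ± 0.02 (95% interval -0.25 to -0.14, limma adjusted p = 0.00239). Upstream of the start the peaks covered 770 ± 29.4 bp against 822 ± 27.4 bp (SD, n = 4 each). Downstream all 4 controls reached the edge of the window at 2000 bp, while those labelled cKO ended after 1601 to 1707 bp. The window thus cuts off the control lengths. The difference, its interval and its p-value hold only for lengths within the window. The height of the peak, as the authors' fold enrichment over input, was 41.9 to 54.2 against 47.9 to 51.2 and overlapped. With centred libraries the difference was -0.08 (adjusted p = 0.116).

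At the Neto2 start with 30 CG dinucleotides the lengths were 1761, 2220, 2436 and 2173 bp against 2923, 2965, 2788 and 2905 bp. The log2 difference of -0.42 ± 0.09 was the largest in size of the 5 starts tested (adjusted p = 0.0202), and it was -0.31 with centred libraries (adjusted p = 0.0342). Peaks were shorter on both sides, 754 ± 93 against 988 ± 63.6 bp upstream and 1394 ± 194 against 1907 ± 31.1 bp downstream (SD, n = 4 each). The call was lost without control replicate 1, 2 or 4, with adjusted p from 0.0502 to 0.0562. Over the gene span, which includes this window, the cover labelled cKO was unchanged at 1761 to 2436 bp, while the controls held 3158 to 3575 bp. Some control cover thus lay outside the window, and the difference at the start holds only within it. The other Neto2 start, whose stretch above holds no CG, had no peak of any of the 4 marks in its window in any library and was not tested.

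At the Grik3 start the covered length was 3973, 3855, 3833 and 3823 bp in the controls and 2922, 3522, 3318 and 3404 bp in the libraries labelled cKO (-0.23 ± 0.06, adjusted p = 0.0343). The difference seen in the window lay upstream, 1377 ± 165 against 1906 ± 46.4 bp, and less downstream, 1914 ± 109 against 1965 ± 23.6 bp. Downstream cover came to 1755 to 2000 bp in the libraries labelled cKO and 1951 to 2000 bp in the controls. As the window holds 2000 bp at most on that side, a difference further out could not be seen. At Grik2 the lengths were 2797, 2969, 2951 and 2705 against 3077, 3154, 3176 and 3334 bp (-0.15 ± 0.04, adjusted p = 0.0457). The difference seen in the window lay upstream, at 854 ± 127 against 1184 ± 108 bp. Every library was covered to the downstream edge, so a difference on that side could not be seen. Both calls rested on few libraries: Grik3 was lost in 6 of the 8 fits that left out 1 library (highest adjusted p = 0.0815) and Grik2 in 7 of 8 (0.109). With centred libraries they were -0.11 (adjusted p = 0.0881) and -0.04 (adjusted p = 0.502).

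The Grik5 start, with 8 CG dinucleotides before it, lies inside the gene, and its window does not reach the 5′ end at chr7:25075694. It had 3108, 3346, 3433 and 3424 bp against 3338, 3638, 3495 and 3527 bp. These overlapped, and the difference of -0.07 did not pass the test (95% interval -0.17 to 0.03, adjusted p = 0.312); it was 0.05 with centred libraries.

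**Figure D3:**
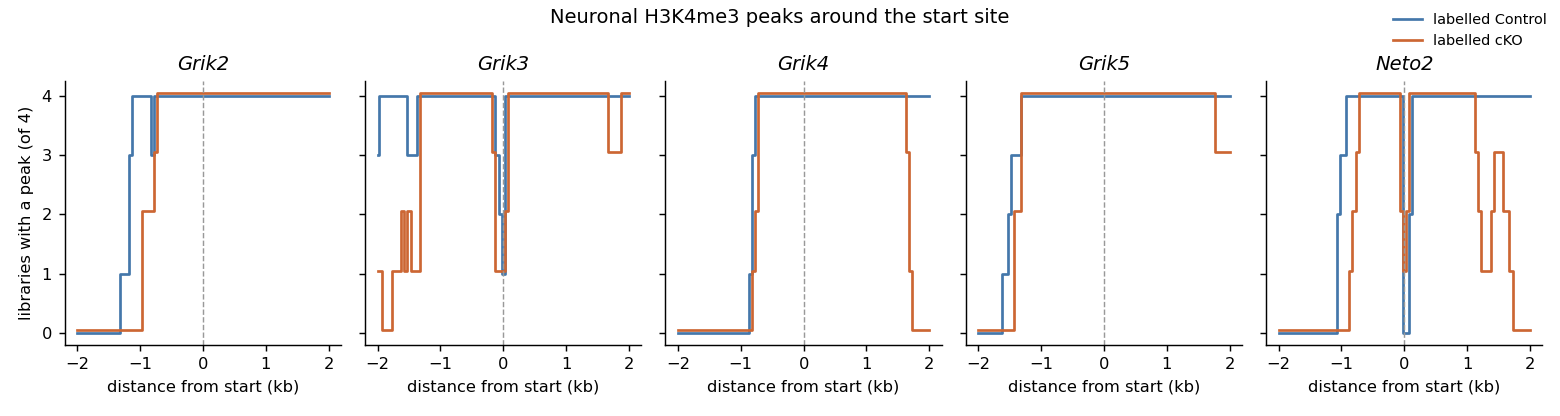
Number of H3K4me3 libraries of 4 with a peak (y axis) by distance from the start site in kb (x axis, negative is upstream), labelled control in blue and labelled cKO in orange, drawn slightly raised. Within the 2 kb shown on either side, the orange line ends earlier downstream at Grik4, upstream at Grik2 and Grik3, and on both sides at Neto2.

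To include Grik1 and Neto1, the covered length was also summed over each gene with 2 kb on either side, an alternative chosen after seeing the data. Such a span can hold peaks of neighbouring or overlapping genes. H3K4me3 was shorter over 4 of the 7 genes, where 18.7% of 24309 genes were called and 17.4% were shorter. Neto1 had 4745, 5746, 6161 and 5109 bp in the libraries labelled cKO and 8377, 8405, 9921 and 9025 bp in the controls, a log2 difference of -0.71 (limma adjusted p = 0.00237). Every Neto1 value labelled cKO lay below every control, as at 21.5% of starts. That share was not taken over gene spans. Neto2 followed with -0.64 (adjusted p = 0.00405), Grik3 with -0.49 (adjusted p = 0.0442) and Grik4 with -0.36 (adjusted p = 0.0173). All 4 stayed called with centred libraries, at -0.62, -0.54, -0.39 and -0.27. Grik2 (-0.36, adjusted p = 0.0873), Grik5 (-0.14, adjusted p = 0.3) and Grik1 (0.09, adjusted p = 0.789) did not pass the test.

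**Figure D4:**
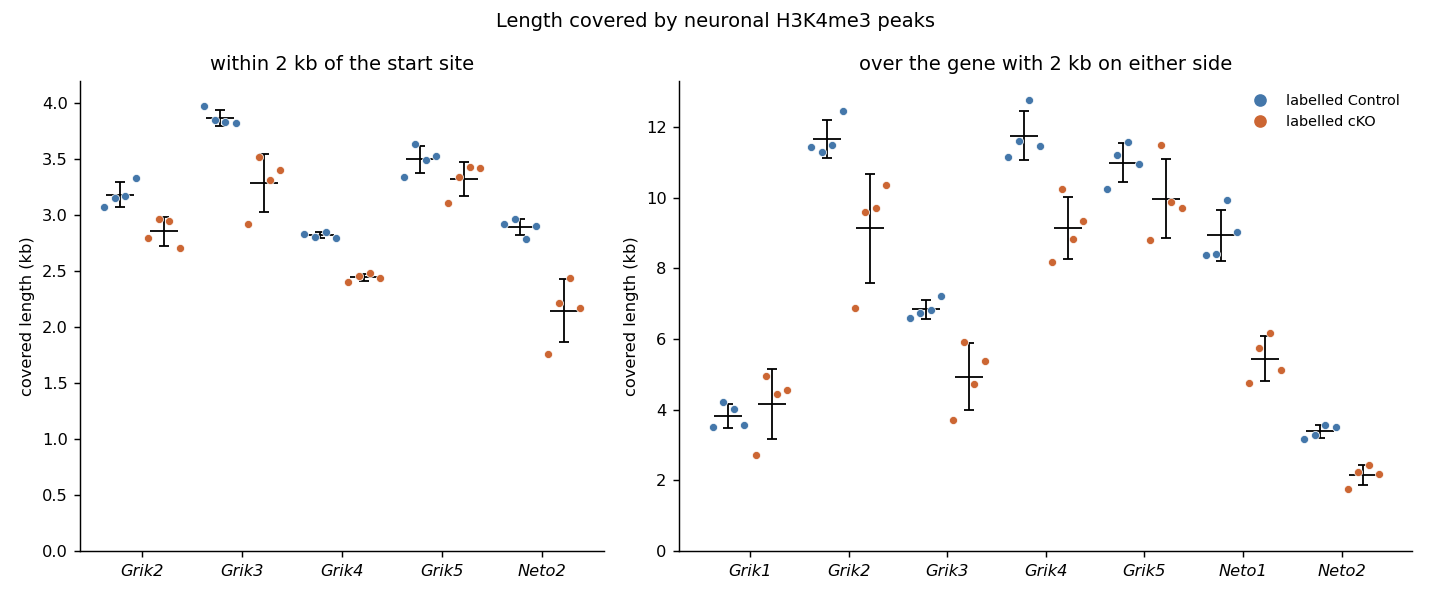
Length in kb covered by H3K4me3 peaks (y axis) in every neuronal library, within 2 kb of the start site (left) and over the gene with 2 kb on either side (right), labelled control in blue and labelled cKO in orange, with mean and SD. At the Grik4 start the 4 orange points (2404 to 2485 bp) lie below the 4 blue points (2793 to 2853 bp), and over Neto1 they lie at 4745 to 6161 bp against 8377 to 9921 bp.

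Of the other marks, none of the 5 starts was called by limma for H3K4me1 (1.98% of all starts), H3K27ac (0.414%) or H3K9ac (0.537%), and none of the 7 gene spans (3.54%, 0.607% and 0.861% of all genes). At an unadjusted p under 0.05 there were 2 starts, both for H3K4me1, where 15.3% of all starts had one (12.6% for H3K27ac and 14.9% for H3K9ac). Of the gene spans there were 2, both for H3K9ac, where 15.5% of all genes had one (20.9% for H3K4me1 and 14.4% for H3K27ac). These were Neto1 (-0.22, limma adjusted p = 0.311), with every library labelled cKO below every control, and Grik4 (0.41, limma adjusted p = 0.323), with overlap. For H3K9ac every library labelled cKO lay below every control at 11.4% of starts, a share not taken over gene spans. At the Grik5 start H3K4me1 covered 3350 ± 753 bp in the libraries labelled cKO and 2161 ± 113 bp in the controls (SD, n = 4 each), with every library labelled cKO above every control, as at 6.71% of all starts (0.58, limma adjusted p = 0.143). At Grik2 it covered 2396 ± 694 against 1679 ± 188 bp (n = 4 each) with overlap (0.46, limma adjusted p = 0.31). H3K27ac and H3K9ac, marks of active promoters and enhancers, differed at the 5 starts by -0.24 to 0.29 and by -0.33 to 0.05 on the log2 scale.

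Set side by side, Grik4 was lower in whole CA RNA and had shorter neuronal H3K4me3 peaks at its start and over its span, which includes the start. Neto1 was lower in whole CA RNA and had shorter neuronal H3K4me3 peaks over its span. Neither was called in neuron RNA (edgeR adjusted p = 0.162 for Grik4 and 0.259 for Neto1), and the call at the Grik4 start was lost with centred libraries. Neto2, Grik3 and Grik2 had shorter H3K4me3 peaks at their starts with no call in RNA between genotypes. The start calls of Grik3 and Grik2 were also lost with centred libraries. With a library left out, the call was lost in 6 of 8 fits for Grik3, 7 of 8 for Grik2 and 3 of 8 for Neto2. Grik1 and Grik5 were called in neither. For Grik1, which had no start site tested, the H3K4me3 part rests on its span only.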

How the data were processed

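The deposited RNA tables list raw read counts, 1 per Ensembl gene ID and library, which are whole and not normalized; the aligner, the counter and strandedness are not given in the sources used here. The supplied gene name table matched 99.3% of neuron IDs and 98.9% of whole CA IDs. ChIP files as deposited were MACS peak lists per library, called at a q-value cutoff of 0.1 per the file headers (version 2.1.1.20160309 for H3K4me3, 2.1.0.20140616 otherwise), with a length, a −log10 q-value and a fold enrichment (a ratio to input) for each peak, per the file headers. H3K4me1 was called broad. The submitters' processing notes list mm10 and GRCm38.

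The main test of counts was edgeR 4.0.16 (TMM, filterByExpr, quasi-likelihood), with DESeq2 1.42.0 as an alternative. Peak cover around 32851 RefSeq start sites was tested with limma 3.58.1 where at least 3 libraries had a peak; log2 lengths carry an offset of 100 bp. Overlapping peaks of a library were merged. Peaks hold no read counts, so height inside a region was not tested, and cover depends on depth and input: H3K4me3 libraries held 24.4 to 27.8 M tags in those labelled cKO and 26.0 to 26.9 M in the controls. On simulated counts the edgeR step recovered 94.5% of 200 changed genes in the neuron design (19622 genes). In the whole CA design (15362 genes) it recovered 99%. Unchanged genes made up 9.13% and 5.71% of its calls. Recovery of differences as small as those of the members was not tested.

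All 7 members are named; of the lists, called genes with the smallest adjusted p, and per member the 2 genes of highest Pearson r. Some called genes of the lists are not reported here. Members and lists were chosen with earlier results of these data known. Alternatives were no filter, RLE factors, library size only, an adjusted p under 0.1, replicate blocks, lanes, each library left out, and for peaks a 1 kb window, a −log10 q of at least 5, a library positive only with 50% of the window covered, centring and the gene span. Library size only, centring, the gene span and the first lane of H3K4me3 were chosen after seeing the data.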

Additional observations from a re-analysis of the deposited data

Results flagged for a closer look

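In 6 of the 57 groups of 4 or 6 libraries examined, 1 library stood apart from the others by Dixon's criterion, which chance meets in about 1 of 20 groups. In whole CA RNA the lowest Grik1 control stood at 12.9 CPM. For H3K9ac in the controls, the highest Grik2 library covered 3042 bp at the start, the lowest Grik3 library 2191 bp and the lowest Grik5 library 3455 bp. The lowest Grik5 library of H3K27ac labelled cKO covered 3943 bp, where the other 3 covered the whole window. Over the span of Grik2 the highest H3K4me3 control covered 12463 bp. None of these groups belongs to a genotype difference that was called. The whole CA controls of Grik1 also enter the comparison with control neurons, where Grik1 was called and stayed called in all 9 fits that left out 1 library (1.36 to 1.52).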

How the results depend on the processing

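In whole CA RNA, Grik4 and Neto1 kept their direction and call under RLE factors, library size only, no filter, DESeq2, a lane term and in all 12 fits that left out 1 library, with log2 fold changes from -0.45 to -0.40 and from -0.42 to -0.32 in the latter. Counts of called genes moved more. In neuron RNA DESeq2 called 833, an adjusted p under 0.1 gave 930, and leaving out 1 library gave 207 to 482, lowest without cKO replicate 1 and also more than 1.5 times below 539 without cKO replicate 2 (259) and control replicates 2 (311) and 3 (268). In whole CA the first lane alone called 207 and the second 224. The difference between both effects called 79 in DESeq2, 69 with no filter and 18 to 32 with 1 library left out. For H3K4me3 starts the count was 267 in a 1 kb window, 967 in the first lane alone, 4539 over gene spans and 1694 to 2943 with 1 library left out. For H3K4me1 it was 255 in a 1 kb window, 1105 over spans and 287 to 491 with 1 library left out. For H3K27ac it was 162 with 50% of the window covered, 148 over spans and 1 to 82 with 1 library left out. For H3K9ac it was 279 with 50% covered, 56 in a 1 kb window, 58 with centring, 211 over spans and 12 to 72 with 1 library left out. Uncalled values changed sign in these cases. In RNA, Grik1 in whole CA was -0.10 in the first lane and -0.05 to 0.05 with 1 library left out, and Neto2 in neurons was 0.01 with library size only and -0.22 to 0.19 with 1 left out. With 1 left out, Grik5 in neurons ranged from -0.21 to 0.02, Neto2 between control materials from -0.36 to 0.03, and the difference of effects from -0.09 to 0.05 for Grik3 and from -0.01 to 0.18 for Grik4. At start sites, centring gave 0.05 (H3K4me3), 0.07 (H3K27ac) and 0.01 (H3K9ac) for Grik5 and 0.04 for Grik4 H3K27ac. Grik3 H3K9ac was 0.06 at a −log10 q of at least 5 and 0.04 in a 1 kb window, and Grik4 H3K9ac was -0.02 and -0.07. In a 1 kb window Grik4 H3K4me1 was 0.05 and Neto2 H3K4me1 was 0.33. With 1 library left out, Grik4 ranged from -0.08 to 0.01 for H3K27ac, -0.25 to 0.08 for H3K4me1 and -0.03 to 0.11 for H3K9ac, and Neto2 H3K4me1 from -0.28 to 0.03. The cause of these changes was not tested, beyond the fewer libraries or starts that enter some of them.

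Replicate numbers did not pair the libraries: same-numbered libraries correlated from -0.06 to 0.29 in neuron RNA, -0.06 to 0.20 in whole CA RNA and -0.07 to 0.08 in ChIP. With the number as a block, calls were 327 in neuron RNA, 839 in whole CA, 30 for the difference of effects, 1568 for H3K4me3 starts, 46 for H3K4me1 starts, and by limma 0 for either acetylation mark (1883 for H3K27ac and 1798 for H3K9ac at an unadjusted p under 0.05). Under the block Grik4 (-0.42) and Neto1 (-0.37) stayed called in whole CA, Neto2 in neurons was 0.02, and of the H3K4me3 starts Grik4 stayed called while Grik2, Grik3 and Neto2 did not (adjusted p = 0.123, 0.0983 and 0.0634). Grik1 had the fewest counts of the members in whole CA, 212 to 356 per library.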
